A study of Mus musculus with 8 samples.

Results

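The genes described here encode the protein coat of plasma lipoproteins and the enzyme complex subunit that builds them. They are Apoa1, Apoa2, Apoa4, Apoa5, Apob, Apoc1, Apoc3, Apoe, Apom and Mttp, which were chosen by gene symbol and function. All 10 were found among the 22155 genes of the count table, in all 8 liver RNA-seq libraries, and all 10 passed the filter on low counts. By their labels the libraries form 4 groups, each with 2 libraries. Yap control livers were homozygous for a floxed Yap1 allele and received AAV8-GFP. Yap1 knockout livers received AAV8-iCre, a virus given to delete the gene in hepatocytes. Ctgf control livers were homozygous for a floxed Ctgf allele, with no virus named. Ctgf knockout livers came from Ctgf conditional knockouts, and the sources used here do not name their Cre driver. All groups, controls included, were C57BL/6 mice of 8 to 10 weeks (8 weeks in the design text) on a Lieber-DeCarli diet with 1% ethanol for 2 days and 2% ethanol for 10 days, and all received carbon tetrachloride (CCl4) at 1 µl per g, given 2 days before sacrifice. Every liver described was therefore injured, and no uninjured liver was analysed here.

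The liver secretes very low density lipoprotein (VLDL), which carries triglyceride to other tissues, and makes much of the protein of high density lipoprotein (HDL), which returns cholesterol. Microsomal triglyceride transfer protein, encoded by Mttp, loads lipid onto apolipoprotein B as it is made, and without it apolipoprotein B is degraded. The smaller apolipoproteins exchange between particles and steer lipases, lecithin-cholesterol acyltransferase and receptors, and ethanol feeding and toxic injury both alter hepatic lipid export. YAP1 is a transcriptional co-activator of the Hippo pathway, and Ctgf, one of its best known target genes, encodes a secreted matricellular protein.

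Apoa1, Apoc3, Apoa4 and Apoa5 lie side by side on chromosome 9 (GRCm38, GENCODE annotation). Apoa1 spans chr9:46228580-46230466 on the plus strand, Apoc3 chr9:46232933-46235636 on the minus strand, Apoa4 chr9:46240696-46243459 on the plus strand and Apoa5 chr9:46268633-46271919 on the plus strand. Apoc1 (chr7:19689481-19692660) and Apoe (chr7:19696109-19699188) are neighbours on the minus strand of chromosome 7. Apoa2 (chr1:171225054-171226379, plus), Mttp (chr3:138089854-138144968, minus), Apob (chr12:7977648-8016835, plus) and Apom (chr17:35128997-35132050, minus) stand alone. All 10 are protein-coding, and their summed exon length ran from 537 bases for Apoa2 to 13934 bases for Apob. Antisense genes cover 69.8% of the exon bases of Apoa4 and 20.8% of those of Apoa5, and 9.49% of those of Mttp are shared with opposite-strand genes. Of these overlapping genes, only Trmt10a, which overlaps Mttp, is in the count table. Because no source used here gives the strand setting of the counting, the counts of these 3 genes are uncertain. The percentages are shares of exon bases and do not give the share of counts affected.

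Promoter stretches of 5 of the genes are shown because Apoa1 and Apoa5, which share a cluster, and Apob and Apoe, which sit on the same particles, gave different patterns of level. The windows searched are the 250 bases before a RefSeq start site (GRCm38.p6). RefSeq and GENCODE place some starts differently, and only bases outside GENCODE exons are printed, 5′ to 3′ on the strand of the gene. Capitals mark a match on either strand to 1 of 3 motifs: CAAAGNNCA, a core of the element bound by the hepatic nuclear receptor HNF4A, TATAAA, the TATA box, and ACGTCA, which holds the core of cyclic AMP response elements. The stretches are chr9:46228380-46228579 for Apoa1, chr1:171224804-171225053 for the first Apoa2 start site, chr9:46268358-46268607 for the first Apoa5 start site, chr12:7977427-7977647 for Apob and chr7:19699189-19699438 (minus strand) for the first Apoe start site.
Apoa1 promoter: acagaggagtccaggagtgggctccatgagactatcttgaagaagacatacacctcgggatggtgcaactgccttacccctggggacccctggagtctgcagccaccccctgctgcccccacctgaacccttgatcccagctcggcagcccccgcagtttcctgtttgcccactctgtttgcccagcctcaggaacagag
Apoa2 promoter: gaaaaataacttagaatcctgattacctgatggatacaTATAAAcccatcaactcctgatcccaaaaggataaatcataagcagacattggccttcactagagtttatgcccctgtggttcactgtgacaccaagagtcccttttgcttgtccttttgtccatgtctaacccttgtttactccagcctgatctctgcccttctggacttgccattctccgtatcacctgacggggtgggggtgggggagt
Apoa5 promoter: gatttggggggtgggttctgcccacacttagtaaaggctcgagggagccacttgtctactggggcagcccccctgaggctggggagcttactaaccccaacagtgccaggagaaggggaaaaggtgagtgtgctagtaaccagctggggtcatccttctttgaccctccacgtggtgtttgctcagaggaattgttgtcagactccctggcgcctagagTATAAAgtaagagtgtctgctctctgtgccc
Apob promoter: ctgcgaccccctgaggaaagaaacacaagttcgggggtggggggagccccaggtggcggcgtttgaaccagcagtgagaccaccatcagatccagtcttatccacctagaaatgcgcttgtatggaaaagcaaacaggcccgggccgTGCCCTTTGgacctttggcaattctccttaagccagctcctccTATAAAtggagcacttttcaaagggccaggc
Apoe promoter: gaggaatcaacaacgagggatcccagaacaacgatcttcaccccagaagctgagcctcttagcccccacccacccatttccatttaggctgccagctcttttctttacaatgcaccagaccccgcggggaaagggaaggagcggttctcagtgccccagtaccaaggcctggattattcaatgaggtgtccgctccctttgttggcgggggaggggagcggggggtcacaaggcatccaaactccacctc
The Apob window holds the HNF4A-type core on the opposite strand, with its first base 103 bases before the start, and a TATA box at 60 bases. The Apoa5 window holds a TATA box at 31 bases and the Apoa2 window 1 at 212 bases. The Apoa1 window and the first Apoe window hold none of the 3 motifs, while the window of the second Apoe start site holds TATAAA on its own strand at 96 bases and on the opposite strand at 100 bases. The windows of Apoa4, with the HNF4A-type core at 182 bases, and of Mttp, with ACGTCA at 29 bases, lie wholly in GENCODE exons and are not printed. Among 32851 mouse promoter windows of the same length, 5.49% hold CAAAGNNCA, 12.4% hold TATAAA and 6.47% hold ACGTCA. Of the members, 8 had a promoter entry in the RefSeq table, and Apoc1 and Apoc3 are named only. Matches are given as letters in these windows and not as sites of binding.

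The library totals ran from 26904021 to 33488609 counts, and levels are in CPM (counts scaled to library size) after TMM scaling, which equalises library composition. Nothing in the labels says that the libraries of a group are separate animals. P-values then measure only how far these samples differ, and that spread may be technical. Yap1 itself stood at 107 and 76.2 CPM in Yap control and at 31.0 and 32.5 CPM in Yap1 knockout. Its log2 fold change was -1.53 (SE 0.22, edgeR adjusted p = 0.0557), so Yap1 itself did not reach an adjusted p under 0.05. Ctgf stood at 28.8 and 32.1 CPM in Ctgf control but at 8.02 and 49.2 CPM in the libraries labelled Ctgf knockout. The library labelled Ctgf knockout 2 was thus above both controls, for a reason that was not tested. The log2 fold change of Ctgf (Ctgf knockout over Ctgf control) was -0.09 (SE 0.69), which did not pass either. Ctgf was not lower after Yap1 deletion. It stood at 96.8 and 50.1 CPM in Yap control and at 406 and 324 CPM in Yap1 knockout. The log2 fold change (Yap1 knockout over Yap control) was 2.31 (SE 0.72), which did not reach an adjusted p under 0.05 in edgeR. The cause of the higher Ctgf level was not tested. The library of Yap control 2 stood apart. Its summed level of 17 exocrine pancreas genes was 16510 CPM, against 3.13 to 8.20 CPM in the other 7 libraries. As a check of the liver label, the summed level of 20 hepatocyte markers was 87480 CPM in Yap control 1, 162900 CPM in Yap control 2 and between 90350 and 153000 CPM in the other 6. In bulk tissue, fewer hepatocytes and less RNA per hepatocyte cannot be told apart.

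The 10 genes took between 1.73% (Ctgf knockout 1, 95% Wilson interval 1.72 to 1.73%) and 2.43% (Yap1 knockout 2, 2.42 to 2.43%) of all counts in 7 libraries. In Yap control 2 they took 3.37% (3.36 to 3.37%). These intervals cover counting error only, and no molecular identifiers are named in the labels. Apob made up 26.9 to 43.5% of the counts of the 10 genes in the other 7 libraries and 10.9% in Yap control 2. Apoa1 made up 37.2% of them there and 10.9 to 20.9% elsewhere. In the library labelled Ctgf knockout 2, Apoe made up the most, 30.45% against 26.9% for Apob. The largest single contributor was thus not the same in all libraries.

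**Figure D1:**
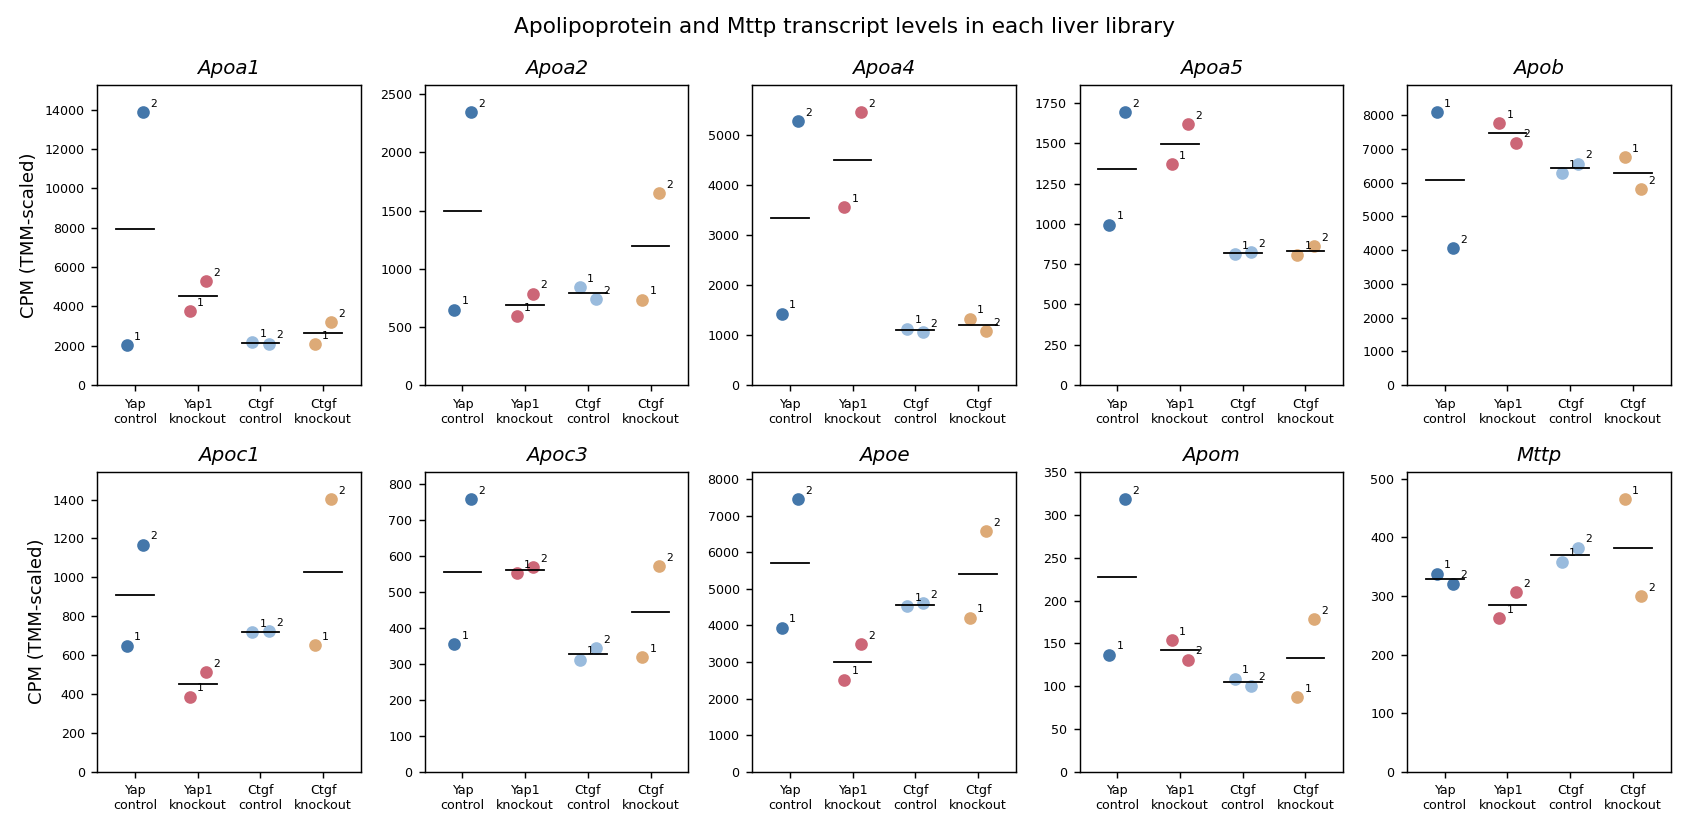
Each panel gives 1 gene, with CPM (TMM-scaled, axis from 0) on the y axis and the 4 groups on the x axis. Points are libraries, numbered by replicate, and bars are the mean of the 2. Apoa4 and Apoa5 were higher in all 4 libraries of the Yap line than in all 4 of the Ctgf line, as were 11.5% of all genes tested. Yap control 2 had the highest Apoa1, at 13880 CPM.

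Levels of different genes can be compared only per length of transcript, so CPM was divided by exon length in kilobases (kb). The length used joins all annotated exons of a gene and can exceed that of a single transcript, so the order depends on the annotation. On this scale Apoa1, the main structural protein of HDL, had the highest mean, 3489 ± 3261 CPM per kb (SD, n = 8 libraries). Apoe, the ligand for clearance of remnant particles, followed at 2184 ± 754, and Apoa2, the other abundant HDL protein, at 1941 ± 1161. Next came Apoa4, which travels with chylomicrons and HDL, at 1395 ± 1061, and Apoc1, which restrains receptor uptake and lipid transfer, at 1044 ± 456. Neighbours among these 5 did not differ beyond their spread. Apob stood at 471 ± 90.4, Apoc3, an inhibitor of triglyceride clearance, at 466 ± 161, and Apoa5, which promotes it, at 445 ± 150 CPM per kb, and these 3 were not separated either. Apom, which carries sphingosine 1-phosphate on HDL, had 150 ± 72.6 CPM per kb, and Mttp had 55.1 ± 10.0. Mttp was the lowest of the 10 in all 8 libraries. Apoe ranked first in 5 libraries, those of the Ctgf line and Yap control 1, and Apoa1 ranked first in the other 3. Mttp also varied least across the libraries, with its highest level 1.78 times its lowest, and Apob came next at 1.99 times. Apoa1 varied most, at 6.85 times, and Apoa4 varied 5.15 times.

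The effect of deleting Yap1 in hepatocytes was tested first. None of the 10 genes passed the threshold of adjusted p under 0.05 in the quasi-likelihood test of edgeR, with p-values adjusted by Benjamini-Hochberg over 13999 genes, nor in DESeq2 or limma-voom. Of all genes tested, 4, or 0.0286%, passed. With the replicate number as a block, no member passed either, and 0.136% of all genes did. The log2 fold change (Yap1 knockout over Yap control) was above 0 for 4 of the 10 and below 0 for 6. Their median was -0.44, against -0.0046 over all genes tested. At an unadjusted p under 0.05, 2 of the 10 (Apoc1 and Apoe) were lower, against 7.14% of all genes, and none was higher, against 6.64%. Both Yap1 knockout libraries were below both Yap controls for 3 of the 10 (Apoc1, Apoe and Mttp), against 20.8% of all genes, and above both for none, against 23.6%. With 2 libraries against 2, an exact two-sided permutation test of a single value cannot pass 0.05, so single values rest on the fit across genes.

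The exchangeable apolipoproteins of the chromosome 7 cluster had the smallest p-values. Apoe stood at 3943 and 7458 CPM in Yap control, at 2522 and 3492 CPM in Yap1 knockout, at 4525 and 4616 CPM in Ctgf control and, for those labelled Ctgf knockout, at 4207 and 6583 CPM. Both Yap1 knockout libraries were thus the lowest of the 8. The log2 fold change was -0.92 (SE 0.39, 95% interval -1.83 to -0.02, edgeR adjusted p = 0.357). Apoc1 stood at 647 and 1168 CPM in Yap control, at 387 and 513 CPM in Yap1 knockout, at 719 and 723 CPM in Ctgf control and, for those labelled Ctgf knockout, at 652 and 1403 CPM. Its 2 Yap1 knockout libraries were likewise the lowest of the 8. The log2 fold change was -1.01 (SE 0.42, 95% interval -1.99 to -0.04, edgeR adjusted p = 0.353). Without Yap control 2 the values were -0.39 for Apoe and -0.52 for Apoc1, and without Yap control 1 they were -1.34 and -1.41. Macrophages also make Apoe. The summed level of 12 Kupffer cell and macrophage genes was 1553 and 2084 CPM in Yap control, 1429 and 1451 CPM in Yap1 knockout, 1152 and 1627 CPM in Ctgf control and 619 and 1171 CPM in the libraries labelled Ctgf knockout, with none of the 12 at 0 in any library, and their part in the Apoe values was not tested.

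The level of Apoe per kb was 2.12 to 2.37 times that of Apoc1 in 7 libraries and 1.63 times in the library labelled Ctgf knockout 2. Across the 8 libraries, Apoe and Apoc1 were the members whose levels differed least in pattern, with a root mean square difference of 0.16 in centred log2 CPM. Between them and Apoa4 the difference was 1.15 and 1.25, the widest for either. Apoc4, the next gene of the cluster, stood at 148 and 534 CPM in Yap control and at 161 and 168 CPM in Yap1 knockout, with a log2 fold change of -1.05 (edgeR adjusted p = 0.413). Apoc2, the activator of lipoprotein lipase, was listed at only 0.795 to 1.49 CPM in the 8 libraries. Of its exon bases, 79.5% are shared with Gm44805, a gene on the same strand, so its level is uncertain.

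The HDL apolipoproteins varied chiefly between the Yap controls. Apoa1 stood at 2026 and 13880 CPM in Yap control, at 3743 and 5295 CPM in Yap1 knockout, at 2167 and 2112 CPM in Ctgf control and, for those labelled Ctgf knockout, at 2085 and 3193 CPM. Both Yap1 knockout values lay between the 2 Yap control values, with a log2 fold change of -0.82 (SE 0.73, 95% interval -2.50 to 0.87, edgeR adjusted p = 0.604). It was 1.16 without Yap control 2 and -1.65 without Yap control 1 (edgeR adjusted p = 0.244 and 0.0214), so its direction depended on which control was used. Apoa2 stood at 649 and 2346 CPM in Yap control, 591 and 786 CPM in Yap1 knockout, 843 and 740 CPM in Ctgf control and, for those labelled Ctgf knockout, at 732 and 1651 CPM. Its log2 fold change was -1.12 (SE 0.60, 95% interval -2.50 to 0.26, edgeR adjusted p = 0.426), and it was 0.09 without Yap control 2. Apom stood at 137 and 319 CPM in Yap control and at 154 and 131 CPM in Yap1 knockout, at 109 and 101 CPM in Ctgf control and, for those labelled Ctgf knockout, at 87.2 and 178 CPM. For Yap1 it had a log2 fold change of -0.68 (SE 0.44, edgeR adjusted p = 0.494) that became 0.06 without Yap control 2. The direction of all 3 HDL genes thus rested on that library.

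The ratio of Apoa1 to Apoa2 per kb was 2.57 in Yap control 2 and 2.75 and 2.93 in Yap1 knockout. It was 1.36 in Yap control 1 and between 0.84 and 1.24 in the 4 libraries of the Ctgf line. Yap control 2 was thus closer in this ratio to the knockouts than to the other control.

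Apoa4, Apoa5 and Apoc3, which govern triglyceride-rich particles, were not separated between Yap control and Yap1 knockout. Apoa4 stood at 1422 and 5264 CPM in Yap control, at 3552 and 5445 CPM in Yap1 knockout, at 1122 and 1057 CPM in Ctgf control and, for those labelled Ctgf knockout, at 1325 and 1073 CPM. The log2 fold change for Yap1 was 0.43 (SE 0.54, 95% interval -0.83 to 1.69, edgeR adjusted p = 0.711). Yap control 2 overlapped the knockouts and Yap control 1 lay below both. Apoa5 stood at 994 and 1693 CPM in Yap control and at 1372 and 1617 CPM in Yap1 knockout, at 810 and 826 CPM in Ctgf control and, for those labelled Ctgf knockout, at 808 and 861 CPM (Yap1 log2 fold change 0.15, SE 0.29, edgeR adjusted p = 0.812). Apoc3 stood at 354 and 758 CPM in Yap control and at 552 and 569 CPM in Yap1 knockout, at 311 and 344 CPM in Ctgf control and, for those labelled Ctgf knockout, at 319 and 572 CPM (Yap1 log2 fold change 0.01, SE 0.40, edgeR adjusted p = 0.992). Its sign was negative under the RLE and upper quartile scalings and in DESeq2. For both, the knockouts lay between the controls.

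Apob stood at 8091 and 4062 CPM in Yap control, at 7762 and 7189 CPM in Yap1 knockout, at 6281 and 6566 CPM in Ctgf control and, for those labelled Ctgf knockout, at 6749 and 5809 CPM. The lowest value was that of Yap control 2, where 6 of the other members were highest. Its log2 fold change for Yap1 was 0.30 (SE 0.36, 95% interval -0.53 to 1.13, edgeR adjusted p = 0.697) and -0.11 without Yap control 2. Mttp stood at 338 and 321 CPM in Yap control, at 262 and 307 CPM in Yap1 knockout, at 359 and 383 CPM in Ctgf control and, for those labelled Ctgf knockout, at 465 and 299 CPM. Its log2 fold change for Yap1 was -0.21 (SE 0.26, 95% interval -0.81 to 0.38, edgeR adjusted p = 0.698), with the narrowest interval of the 10. The interval leaves room for a level between 0.572 and 1.30 times that of the controls. Apob per kb was 10.4 to 13.2 times Mttp in Yap1 knockout, 10.7 and 5.64 times in Yap control, and 6.46 to 8.64 times in the Ctgf line.

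**Figure D2:**
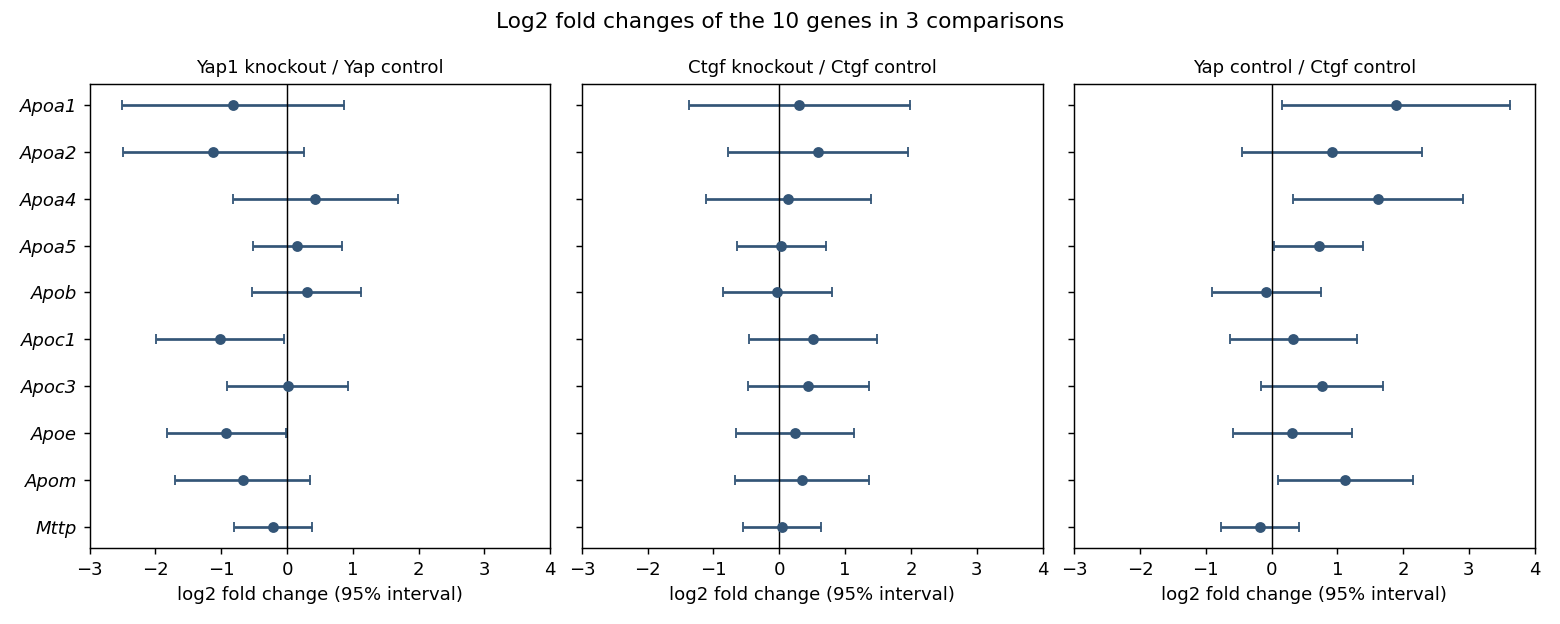
The x axis gives the log2 fold change, with its 95% interval from edgeR's quasi-likelihood fit, of each of the 10 genes (y axis) in 3 comparisons. For Yap1 the intervals of Apoc1 and Apoe end just below 0, at -0.04 and -0.02, and in the Ctgf panel all 10 intervals cross 0.

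The fold changes for Yap1 depended on which control library was kept. With Yap control 2 and the library labelled Ctgf knockout 2 left out (added after the data were seen), so that a lone Yap control was assumed to vary like the other groups, Apoa4 was higher in Yap1 knockout by 1.66 on the log2 scale (edgeR adjusted p = 0.0315) and Apoc3 by 0.66 (edgeR adjusted p = 0.0404). Apoa1 gave 1.16 (edgeR adjusted p = 0.0502). That fit called 6.58% of 14261 genes. With Yap control 2 alone left out, the fold changes of Apoa4 and Apoc3 were the same to 2 decimals, but neither passed (edgeR adjusted p = 0.128 and 0.418), no member passed, and 0.28% of 14309 genes did. With Yap control 1 alone left out, Apoa1 (-1.65, edgeR adjusted p = 0.0214), Apoa2 (-1.80, 0.0334) and Apoe (-1.34, 0.0386) were lower, in a fit that called 25.8% of 14457 genes. No member passed both with Yap control 1 and with Yap control 2 left out, and Apoa1, Apoa2, Apoa4, Apoa5, Apob, Apoc3 and Apom had opposite signs between these fits.

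**Figure D3:**
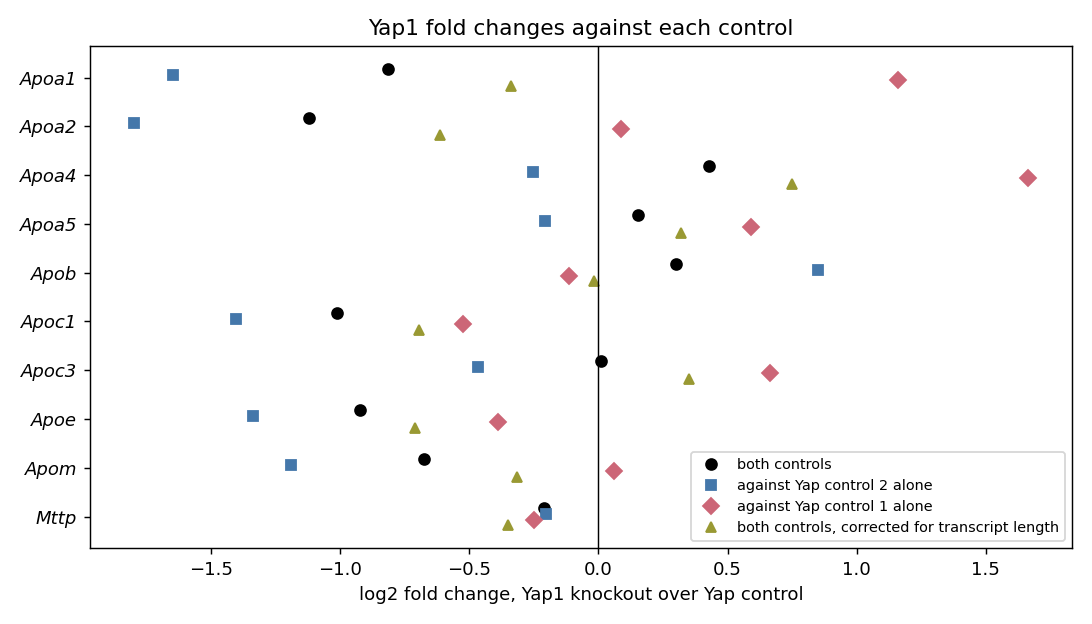
The x axis gives the log2 fold change of Yap1 knockout over Yap control for each gene (y axis), with both controls (circles), against Yap control 2 alone (squares), against Yap control 1 alone (diamonds) and with both controls after correction for transcript length (triangles). Apoc1, Apoe and Mttp lie left of 0 in all 4, and Apoa1 runs from -1.65 to 1.16.

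The Yap controls differed from each other by transcript length. Among 13761 tested genes with a known exon length, the median log2 difference (Yap control 2 minus 1) was 0.85 for 294 genes under 1 kb, 0.57 at 1 to 2 kb, 0.21 at 2 to 4 kb, -0.19 at 4 to 8 kb and -0.63 for 2410 genes over 8 kb. In the libraries labelled Ctgf knockout the medians ran from 0.23 to -0.14 over the same classes, and within Ctgf control and Yap1 knockout all 5 lay between -0.07 and 0.10. Among the members Apob, the longest, was 0.99 lower in Yap control 2 on the log2 scale, Mttp 0.08 lower, and the other 8, all under 4 kb, were higher. Apoc1 differed by 0.85, the same as the median of its length class. Apoa1 differed by 2.78, which exceeds the median of its class by 2.204, and only 1.21% of genes had a larger difference. Apoa4 exceeded its class by 1.32 and Apoa2 by 1.00. After a correction of each library for transcript length (added after the data were seen), the log2 fold changes for Yap1 were -0.34 for Apoa1, -0.61 for Apoa2, 0.75 for Apoa4, -0.02 for Apob, -0.70 for Apoc1 and -0.71 for Apoe, and none passed the threshold (edgeR adjusted p = 0.297 for Apoc1 and 0.318 for Apoe).

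**Figure D4:**
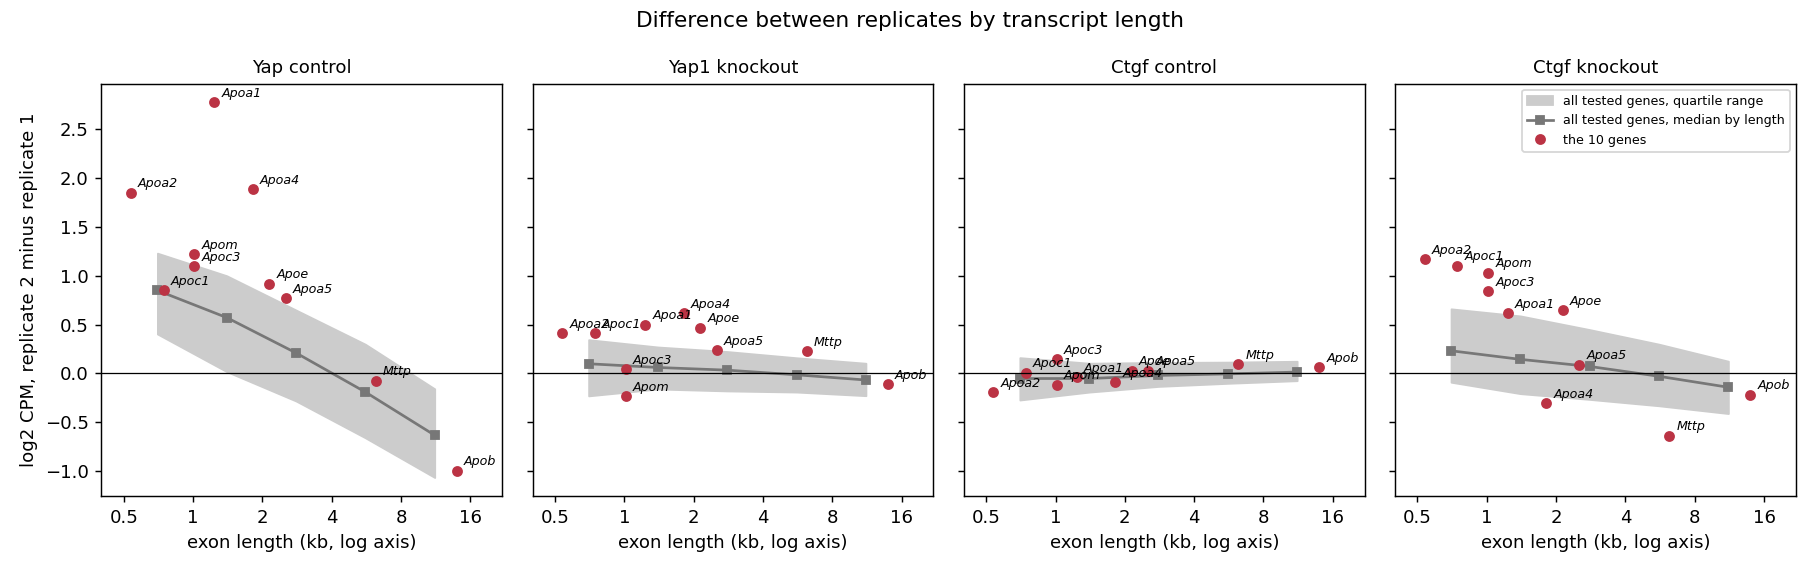
The x axis gives exon length in kb (log axis) and the y axis the log2 CPM difference of replicate 2 minus replicate 1, with 1 panel per group. Squares are medians of all tested genes by length class, the band is their quartile range, and red points are the 10 genes. In Yap control the median runs from 0.85 to -0.63, and Apoa1 lies far above its class at 2.78.

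Apoa1 and Apoa4 are also made by intestinal epithelium, and Yap control 2 carried transcripts of exocrine pancreas. The summed level of the 13 intestinal markers in the table was 361 CPM in Yap control 2 and 151 to 176 CPM in the other 7 libraries. Anpep alone, which was not confined to these libraries, gave 106 to 167 CPM of that sum. Krt20 was highest in Yap control 2 (9.88 CPM), but stood at 3.86 and 7.56 CPM in Ctgf control and 4.33 CPM in Ctgf knockout 1. In Yap1 knockout it stood at 1.58 and 0.90 CPM. Sis, the brush border sucrase, stood at 4.65 CPM in Yap control 2 and 3.36 CPM in Yap1 knockout 1, and Rbp2, a retinol carrier of enterocytes, at 14.2 and 1.48 CPM. Both were at 0 in the other 6 libraries, and Cdx1, an intestinal transcription factor, was at 0 in all but Yap control 2. In Yap1 knockout 2, where Apoa4 was highest at 5445 CPM, Sis, Rbp2 and Cdx1 were at 0, but Cdh17, an intestinal cadherin, was at its highest there with 7.79 CPM, against 7.16 CPM in Yap control 2 and 0.827 to 2.44 CPM elsewhere. Fabp2, the intestinal fatty acid carrier, stood at 71.3 CPM in Yap control 2, 32.4 CPM in Yap1 knockout 2 and 14.5 to 26.4 CPM elsewhere. The part of intestinal RNA in the Apoa1 and Apoa4 values was not tested. In that group 19 of 20 hepatocyte markers were also higher in replicate 2, with a median log2 difference of 0.90.

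For Ctgf the question was whether its conditional deletion altered the same genes. The log2 fold changes over Ctgf control were above 0 for 9 of the 10, with a median of 0.27 against 0.01 over all genes. None passed the threshold (all edgeR adjusted p = 1.0), none had an unadjusted p under 0.05, and DESeq2 and limma-voom called none of them. Over all genes edgeR called 0.0%, with 1.98% at an unadjusted p under 0.05. The groups overlapped for all 10 genes, while 15.5% of all genes were higher and 16.8% lower in both libraries labelled Ctgf knockout than in both controls. The highest value was that of Apoa2, 0.59 (SE 0.59, 95% interval -0.78 to 1.96), and Apob gave -0.03 (SE 0.36, 95% interval -0.86 to 0.79). Without the library labelled Ctgf knockout 2, the values became -0.11 for Apoa2, -0.14 for Apoc1, -0.12 for Apoe and -0.26 for Apom. The signs of 8 of the 10 turned over without that library, and 3 of the 10, Apoa4, Apob and Mttp, were then above 0. There Apoc1 was 2.15 times, Apoa2 2.26 times and Apom 2.04 times the level in replicate 1, and 17 of 20 hepatocyte markers were higher too, with a median log2 difference of 0.62. Scaled to the hepatocyte markers, which moved the median of all genes by -0.22, 5 of the 10 fold changes were above 0.

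The Yap1 and Ctgf effects were then compared in the same fit, with the difference taken as Yap1 minus Ctgf. No member's difference passed the threshold in edgeR, DESeq2 or limma-voom, and edgeR called 0.0% of all genes. Apoc1 had the smallest p, with a difference of -1.52 (SE 0.59, 95% interval -2.89 to -0.15, edgeR adjusted p = 0.535), and it was the only member at an unadjusted p under 0.05, as were 8.87% of all genes (4.19% lower and 4.68% higher). Apoe followed at -1.16 (SE 0.55, edgeR adjusted p = 0.575) and Apoa2 at -1.71 (SE 0.84, edgeR adjusted p = 0.581). Without Yap control 2 and the library labelled Ctgf knockout 2 the differences were -0.38 for Apoc1, -0.27 for Apoe and 0.20 for Apoa2. Without Yap control 1 alone, Apoa1 (-1.96, edgeR adjusted p = 0.0422) and Apoa2 (-2.40, edgeR adjusted p = 0.0466) passed, in a fit that called 14.5% of genes. Apoa1 gave -1.12 with all 8 libraries and 0.86 without Yap control 2. With all 8 libraries a difference between the deletions was not detectable for any of the 10.

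The 2 control groups differ in the floxed allele and in the virus given, which cannot be told apart, and this comparison answers no question about deletion. Apoa4 was 3343 ± 2716 CPM in Yap control and 1090 ± 46.2 CPM in Ctgf control (SD, n = 2 each). Its log2 fold change was 1.62 (SE 0.56, 95% interval 0.33 to 2.90, edgeR adjusted p = 0.148). Apoa1 gave 1.89 (edgeR adjusted p = 0.190), Apom 1.12 (0.190), Apoc3 0.76 (0.297) and Apoa5 0.72 (0.203). No member passed in edgeR or limma-voom, against 2.38% of all genes in edgeR. DESeq2 called Apoa1 (adjusted p = 0.0311) and Apoa4 (0.0180) among 11.3% of genes. Both Yap controls were above both Ctgf controls for 4 members (Apoa4, Apoa5, Apoc3 and Apom), against 26.1% of all genes, and below them for Mttp, against 27.0%. At an unadjusted p under 0.05 there were 4 members, all higher (Apoa1, Apoa4, Apoa5 and Apom), against 12.2% of genes.

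Across all 8 libraries, Apoa4 and Apoa5 were higher in each of the 4 Yap line libraries than in each of the 4 Ctgf line libraries, as were 11.5% of all genes. Apoa4 ran from 1422 to 5445 CPM in the Yap line and from 1057 to 1325 CPM in the Ctgf line. Apoa5 ran from 994 to 1693 CPM in the first and from 808 to 861 CPM in the second. In a fit of all libraries of each line (added after the data were seen), Apoa4 was higher by 1.76 (edgeR adjusted p = 0.0222) and Apoa5 by 0.78 (edgeR adjusted p = 0.0392), and 17.6% of genes were called. Marker lists of stellate cells and fibroblasts, sinusoidal endothelium and cholangiocytes were separated between the lines in the same direction, the last only narrowly. The hepatocyte, exocrine pancreas, intestinal, macrophage, neutrophil, erythroid, and T and NK cell lists overlapped between the lines. The summed level of 11 stellate cell and fibroblast genes was 946 to 1179 CPM in the Yap line and 406 to 461 CPM in the Ctgf line, that of 10 sinusoidal endothelial genes 610 to 995 against 412 to 514 CPM, and that of 9 cholangiocyte genes 405 to 1530 against 293 to 400.2 CPM. Their part in the difference between the lines was not tested. The cluster neighbours of Apoa4 and Apoa5 overlapped between the lines, with Apoa1 at 2026 to 13880 against 2085 to 3193 CPM and Apoc3 at 354 to 758 against 311 to 572 CPM. Without Yap control 1, 6 members passed between the controls, in a fit that called 25.6% of genes. Without Yap control 2 the fold changes between the controls were 0.38 for Apoa4, 0.28 for Apoa5 and -0.08 for Apoa1.

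Other genes of lipoprotein metabolism were counted in 5 lists chosen by function. In edgeR none of their tested genes passed in any of the 4 comparisons, and limma-voom called none. DESeq2 called 12 of the 89 genes for Yap1, 6 higher and 6 lower, against 3.85% of all genes, 0 for Ctgf, 6 for the difference against 1.19%, and 7 between the controls against 11.3%. Of the 16 tested other apolipoproteins, 2 had a Yap1 fold change above 0, with a median of -0.20 and 2 genes at an unadjusted p under 0.05, against 13.8% of all genes. Apol7a stood at 7.91 and 11.5 CPM in Yap control and at 6.91 and 4.33 CPM in Yap1 knockout (log2 fold change -0.79, edgeR adjusted p = 0.335). Pon1, the HDL paraoxonase, stood at 176 and 282 CPM in Yap control and 141 and 124 CPM in Yap1 knockout (log2 fold change -0.79, edgeR adjusted p = 0.341).

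Of 19 genes for assembly and secretion, 9 were above 0, with a median of -0.02 and 5 at an unadjusted p under 0.05 (13.8% of all genes). Dgat2, which makes triglyceride for storage and export, stood at 161 and 250 CPM in Yap control and 115 and 116 CPM in Yap1 knockout (log2 fold change -0.83, edgeR adjusted p = 0.263). Fitm2, which acts in lipid droplet formation, stood at 89.3 and 112 CPM and at 64.1 and 62.7 CPM (-0.66, edgeR adjusted p = 0.223, DESeq2 adjusted p = 0.0467). Both knockout libraries were below both controls for these genes. They also stood at higher levels in the Ctgf line, where Dgat2 ran from 293 to 472 CPM and Fitm2 from 127 to 138 CPM.

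Of 16 lipases and remodelling factors, 4 were above 0, with a median of -0.45 and 7 at an unadjusted p under 0.05 (13.8% of all genes). Angptl8, a hepatic inhibitor of lipoprotein lipase, stood at 28.3 and 24.4 CPM in Yap control and at 8.43 and 6.92 CPM in Yap1 knockout (log2 fold change -1.78, SE 0.38, edgeR adjusted p = 0.147, DESeq2 adjusted p = 0.000864). Abca1, which loads cholesterol onto apolipoprotein A-I, stood at 310 and 108 CPM and at 575 and 755 CPM (1.67, SE 0.44, edgeR adjusted p = 0.203, DESeq2 adjusted p = 0.0053). For both, the groups did not overlap.

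Of 14 receptors and their regulators, 11 were above 0, with a median of 0.34 and 4 at an unadjusted p under 0.05 (13.8% of all genes). Of 22 transcription factors of apolipoprotein genes, 9 were above 0, with a median of -0.10 and 7 at an unadjusted p under 0.05 (the same 13.8% of all genes). Nr1h4, the bile acid receptor, stood at 90.7 and 88.0 CPM and at 54.1 and 47.7 CPM (-0.81, SE 0.18, edgeR adjusted p = 0.153, DESeq2 adjusted p = 0.00296). Ppargc1a, a co-activator of fasting metabolism, stood at 26.6 and 25.3 CPM and at 49.0 and 54.8 CPM (1.00, SE 0.22, edgeR adjusted p = 0.153, DESeq2 adjusted p = 0.00649). In Ctgf knockout against Ctgf control Ppargc1a gave -0.87 (SE 0.22, edgeR adjusted p = 1.0), and its difference between the effects was 1.87 (edgeR adjusted p = 0.271, DESeq2 adjusted p = 0.000259). Neutrophil markers were also higher in Yap1 knockout. The summed level of 12 neutrophil genes was 730 and 3283 CPM in Yap control and 5299 and 5050 CPM in Yap1 knockout. It was 2309 and 1773 CPM in Ctgf control and 2708 and 1648 CPM in the libraries labelled Ctgf knockout. The 2 Yap controls differed in this sum, and Yap control 2 also carried the transcripts of exocrine pancreas. None of the 12 was at 0 in any library, and the part of neutrophils in the values above was not tested.

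The genes outside the 10 whose pattern over the 8 libraries was closest to each member were found by the root mean square difference of centred log2 CPM. Apob had the closest, Erc1, at 0.04, followed by Nfatc3 at 0.06. Erc1 stood at 70.1 CPM in Yap control 1 and 32.9 CPM in Yap control 2, as Apob stood at 8091 and 4062. Apom was closest to Tmem256 (0.07) and Uqcc3 (0.10), Apoa5 to Atxn10 (0.09) and Aifm2 (0.11), and Mttp to Mrpl47 (0.09) and Psma1 (0.10). Apoe was closest to Sod1 and Traf4 (both 0.13), Apoc3 to H2-Q10 and Tecr (both 0.15), Apoa2 to Hyi (0.19) and Cyp2d26 (0.22), and Apoc1 to Gstm1 and Nat8f1 (both 0.21). Apoa1 had the most distant nearest genes, Lrg1 and Pnpla2 (both 0.31), and Apoa4 came next with Nudt18 (0.27) and Mat1a (0.30). These 2 members also varied most about their own means, by 0.90 and 0.98, against 0.29 for Apob and 0.24 for Mttp. Among the members themselves, Apob was nearest to Mttp at 0.38 and farthest from Apoa1 at 1.13. That 0.38 exceeds the own spread of Apob and of Mttp, so it does not show a shared pattern.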

How the data were processed

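RNA-seq counts of 8 mouse liver libraries in 4 groups of 2 were used. Read counts, as whole numbers per gene symbol and library, are what the authors deposited. The tools, per the submitters' processing notes, were HTSeq 0.6.1, STAR 2.6.0a and bcl2fastq 2.20.0.422, with mm10 (GRCm38). No source used here gives the annotation or strand setting. Per the labels' protocols, RNA came from frozen liver with Trizol, and a TruSeq and a KAPA mRNA HyperPrep kit are both named without saying which library used which. No column was left unused (0).

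The counts were tested with edgeR 4.0.16 (R 4.3.3): TMM scaling, edgeR's low-count filter (13999 genes left), 1 quasi-likelihood fit of the 4 groups with 4 residual degrees of freedom, and Benjamini-Hochberg adjustment over all genes, with adjusted p under 0.05 as the threshold. The biological coefficient of variation was 27.2%. Standard errors were derived from each fold change and its F statistic. Exon lengths and positions are from GENCODE (GRCm38) by symbol, of which 21682 matched. Pattern likeness used log2 CPM with a prior count of 2 and genes of at least 5 CPM.

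The 10 genes are all named. Of each pathway list, the genes past the threshold are named, or otherwise up to 2 with the smallest p, and each gene has its 2 closest in pattern. The genes that this rule takes from the list of receptors and their regulators are not reported here. Promoter motifs, DESeq2 calls in the lists and marker genes are named where a result touches them. The members, lists and tests were chosen with earlier results of these data known. Alternatives were DESeq2 1.42.0, limma-voom (limma 3.58.1), 3 other scalings, 2 other filters, a fit of the compared libraries alone, a replicate block, each library left out, and 3 added after the data were seen: Yap control 2 and the library labelled Ctgf knockout 2 both left out, a transcript length correction, and all libraries of each line. The fit was run on simulated data, but its accuracy for the libraries used here was not tested.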

Additional observations from a re-analysis of the deposited data

How the results depend on the processing

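Counts of genes past the threshold depended on the tool and the libraries. For Yap1, 4 genes passed in the reported fit, 549 in DESeq2 (274 higher, 275 lower), 37 without the low-count filter, 34 with the length correction, and 0 both when scaled to the hepatocyte markers and with the compared libraries alone. For Ctgf the count of 0 (277 genes at an unadjusted p under 0.05) became 4 in DESeq2 and 1 in limma-voom. For the difference the count of 0 became 166 in DESeq2 and 2 without the filter. Between the controls 333 genes passed, 13 when scaled to the hepatocyte markers, 1605 in DESeq2, 0 with the compared libraries alone, 582 with the length correction and 2468 with all libraries of each line. Members passed there only in DESeq2 (2) and with all libraries of each line (2), or with a library left out. Leaving libraries out, the counts ran from 0 to 3728 for Yap1, 0 to 0 for Ctgf, 0 to 2092 for the difference and 0 to 4056 between the controls, and the members past the threshold from 0 to 3, 0 to 0, 0 to 2 and 0 to 6. The cause was not tested.

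The titles call each Yap control the control for a particular numbered knockout. That number is carried by the same-numbered Yap1 knockout for replicate 2, but by the control itself for replicate 1, and no shared litter, batch or day is named. The numbers were not taken as pairs in the reported fit. Same-numbered libraries correlated at 0.07 in their deviations in each line, but this rests on a single difference per group and cannot exclude pairs. With a replicate block, 19 genes passed for Yap1 and 219 between the controls, 0 for Ctgf and for the difference, and no member passed in any comparison.

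The signs of some log2 fold changes turned over, and not only of those near 0. The Yap1 fold change of Apoa2 went from -1.12 to 0.086 without Yap control 2. For Yap1, Apoc3 became -0.0066 (RLE), -0.050 (upper quartile), -0.0015 (DESeq2) and -0.024 (compared libraries alone), and Apob -0.013 (hepatocyte scaling) and -0.016 (length correction). For Ctgf the hepatocyte scaling gave -0.064 for Apoa4, -0.21 for Apoa5, -0.043 for Apoe and -0.13 for Mttp, and the length correction 0.069 for Apob. Between the controls Apob became 0.052 (upper quartile), 0.042 (length correction) and 0.086 (all libraries), Apoc1 -0.17 (length correction) and -0.43 (all libraries), and Apoe -0.26 (all libraries). With libraries left out, the ranges were, for Yap1, Apoa1 -1.65 to 1.16, Apoa2 -1.80 to 0.086, Apoa4 -0.25 to 1.66, Apoa5 -0.21 to 0.59, Apob -0.11 to 0.85, Apoc3 -0.47 to 0.66, Apom -1.19 to 0.060. For Ctgf they were Apoa1 -0.037 to 0.59, Apoa2 -0.11 to 1.08, Apoa4 -0.0076 to 0.28, Apoa5 -0.018 to 0.088, Apob -0.13 to 0.072, Apoc1 -0.14 to 0.98, Apoc3 -0.039 to 0.82, Apoe -0.12 to 0.54, Apom -0.26 to 0.78, Mttp -0.29 to 0.33. Between the controls they were Apoa1 -0.085 to 2.72, Apoa2 -0.29 to 1.59, Apob -0.64 to 0.33, Apoc1 -0.16 to 0.72, Apoe -0.22 to 0.73, and for the difference Apoa1 -1.96 to 1.19 and Apoa2 -2.40 to 0.20. The least counted member, Apom, had 2459 or more counts in every library, and what limits these values was not tested.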
